A study of Rattus norvegicus with 17 samples.

Results

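Classic target genes of the mineralocorticoid receptor (MR) and the glucocorticoid receptor (GR) were followed in the meibomian gland (MG), the oil gland of the eyelid, of each rat. The genes were taken by name: Fkbp5, Per1, Sgk1, Tsc22d3, Zbtb16, Klf9, Dusp1, Cebpd, Ndrg2 and Errfi1. A row with that gene symbol was found for 9 of the 10 names among the 17251 genes of the table, and all 9 reached 1 TPM in 3 or more rats, the condition for being tested, which 13105 genes met. Dusp1 was not analysed here. TPM is a gene's length-corrected share of all the RNA measured in a sample, so levels can be set side by side between genes.

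MR and GR are nuclear receptors that bind corticosteroids in the cytoplasm, move to the nucleus and bind the same kind of DNA element. In the rat the main circulating glucocorticoid, corticosterone, binds both receptors. Fkbp5, Tsc22d3, Per1, Klf9 and Zbtb16 are induced by corticosteroids in many tissues and are used as readouts of hormone acting on a cell, while Sgk1 is the textbook early target of aldosterone and MR in salt-transporting epithelia.

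The 17 rats were female Sprague-Dawley animals aged 10 to 12 weeks, and fell into 4 groups. Control WT (n = 4) were wild-type rats left without UVB, and Control P1.hMR (n = 5) were transgenic rats left without UVB. UVB WT (n = 3) and UVB P1.hMR (n = 5) had the eyelids irradiated with ultraviolet B on 5 days before the glands were dissected. P1.hMR rats carry human MR, NR3C2, under its own proximal P1 promoter, which is active in all tissues that express MR and is not specific to the gland. According to the methods, the upper eyelids were shaved before UVB. Whether control eyelids were shaved, and at what time of day the glands were taken, is not given in the sources used here.

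Between 12372 and 12737 genes per rat reached 1 TPM. All 8 genes of a meibocyte list (lipid-forming gland cells) had a mean of at least 1 TPM in every group. Their sum lay between 14677 and 18871 TPM in control rats and between 12169 and 14301 TPM in UVB rats. Awat2 carried most of this sum, and its mean went from 11610 to 7380 TPM with UVB among WT animals. Among P1.hMR animals it went from 10455 to 7280 TPM. The 8 genes did not fall together, with a median log2 change after UVB of -0.003 (WT) and 0.045 (P1.hMR). By the thresholds given below, UVB raised 2 of the 8 genes and lowered 1 among WT animals. Among P1.hMR animals it raised 1 and lowered 2. Skeletal muscle genes were present as well, with all 9 of the list at a mean of at least 1 TPM in every group and a sum of 2475 to 4372 TPM in control and 1866 to 3776 TPM in UVB rats. In whole-gland RNA, fewer cells of a type and less RNA per cell cannot be told apart.

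The receptors and the enzymes that set local hormone levels were examined first. Human NR3C2 was listed at 0 TPM in every WT rat and at 5.31 to 9.31 TPM in each P1.hMR rat. The rat's own Nr3c2 was at 10.6 to 25.9 TPM in Control WT (mean 16.2) and 9.27 to 11.8 TPM in Control P1.hMR rats (mean 10.4). After UVB it was at 6.53 to 11.6 TPM in WT and 6.33 to 8.54 TPM in P1.hMR rats. Reads could be split between the human and the rat gene, so both levels are uncertain, as is the total of both genes. Nr3c1, which encodes GR, was at 23.7 to 30.8 TPM in the 17 rats. Hsd11b1, the enzyme that regenerates active corticosterone, was abundant at 910 to 1291 TPM. Hsd11b2, which inactivates corticosterone and so keeps it from MR, was at 2.84 to 7.09 TPM in control rats and at 0.94 to 1.70 TPM in UVB rats, with no overlap. Such a separation in the lower direction was shown by 12.6% of tested genes between the WT groups and 14.0% between the P1.hMR groups. After UVB Hsd11b2 had a log2 change of -1.14 among WT (standard error 0.22, adjusted p = 0.00197) and of -1.24 among P1.hMR rats (standard error 0.18, adjusted p = 6.70e-05). These p-values and those below come from limma fitted to all 13105 genes with Benjamini-Hochberg adjustment, unless another test is named. Nr3c2 fell after UVB in WT rats by 0.82 on the log2 scale (adjusted p = 0.0200), and its change among P1.hMR animals was -0.48 (adjusted p = 0.0585). Hsd11b1 and Nr3c1 were not called in either genotype. Nr3c1 changed by -0.20 in WT (adjusted p = 0.0327) and by -0.13 in P1.hMR rats (adjusted p = 0.0525). Human NR3C2 changed by -0.29 among P1.hMR rats (adjusted p = 0.0480). These changes were under the fold threshold of 0.5 used here. By adjusted p alone, 21.5% of tested genes passed for WT and 39.1% for P1.hMR rats.

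Averaged over the 17 rats, Ndrg2 was the most abundant member at 273 TPM, followed by Tsc22d3 at 56.8, Sgk1 at 55.1, Errfi1 at 49.6, Fkbp5 at 27.9, Per1 at 22.4, Cebpd at 22.2, Klf9 at 17.4 and Zbtb16 at 4.79 TPM. The lowest Ndrg2 value (220.5 TPM) was above the highest value of each other member, whereas Tsc22d3, Sgk1 and Errfi1 had overlapping ranges, as had Fkbp5, Per1, Cebpd and Klf9. Zbtb16 at its highest (13.5 TPM) only just passed the lowest Klf9 value (12.7 TPM).

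**Figure D1:**
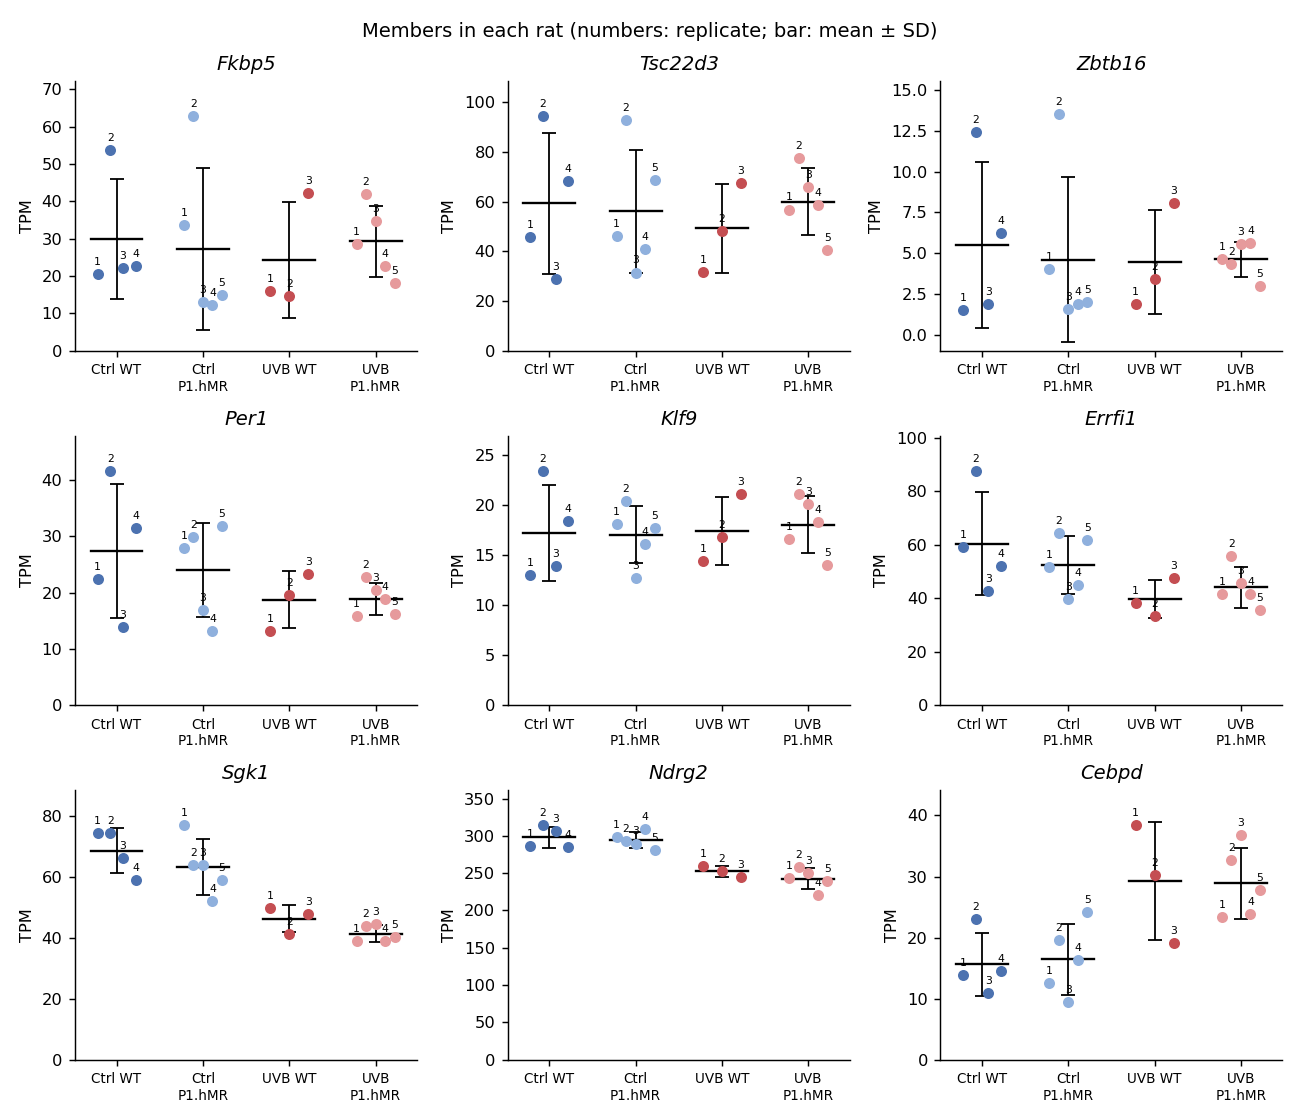
TPM of the 9 members in each of the 17 rats (linear vertical axes), by group, with replicate numbers beside the points and bars for mean ± SD. Sgk1 and Ndrg2 were lower in all UVB rats than in all control rats, while Fkbp5 (12.2 to 62.8 TPM) and Zbtb16 (1.48 to 13.5 TPM) spread widely within groups.

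UVB changed 2 of the 9 members past both thresholds used here, an adjusted p under 0.05 and a log2 change of 0.5 or more in size, in each genotype. Sgk1 fell and Cebpd rose. The 2 members stand against 7.91% of all tested genes called in WT rats and 10.8% in P1.hMR rats, and averaged over genotypes the same 2 were called, against 9.48%. For the 9 members the median log2 change was -0.24 (WT) and 0.08 (P1.hMR), beside 0.01 and -0.02 for all tested genes.

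Sgk1 encodes a kinase that raises sodium uptake through the epithelial sodium channel. The Control WT rats had 74.5, 74.5, 66.3 and 59.2 TPM and the Control P1.hMR rats 77.1, 64.1, 63.9, 52.1 and 59.1 TPM. After UVB it was 49.8, 41.2 and 48.0 TPM in WT and 39.1, 44.1, 44.6, 39.0 and 40.4 TPM in P1.hMR rats. Every UVB rat was thus below every control rat, a separation in the lower direction that 12.6% of tested genes showed between the WT groups and 14.0% between the P1.hMR groups. The group means were 68.6 ± 7.39 (SD, n = 4) and 46.3 ± 4.53 TPM (SD, n = 3) in WT rats and 63.2 ± 9.12 (SD, n = 5) and 41.4 ± 2.74 TPM (SD, n = 5) in P1.hMR rats. On the log2(TPM + 1) scale WT rats changed by -0.55 (standard error 0.11, adjusted p = 0.00251) and P1.hMR rats by -0.59 (standard error 0.091, adjusted p = 0.000116). A two-sided exact permutation test gave p = 0.0571 for WT and p = 0.00794 for P1.hMR rats, in both cases the smallest p the group sizes allow. Averaged over genotypes the change was -0.57, with an exact permutation p of 0.000227, again the smallest possible. Without UVB WT replicate 2, the WT change was -0.47 and under the fold threshold. Deviations of Sgk1 from the group means correlated with those of the meibocyte sum, most of it Awat2 (r = 0.59 over 17 rats). They correlated inversely with those of a Schwann cell and nerve list (r = -0.58 over 17 rats). All 6 genes of the nerve list were at a mean of at least 1 TPM, with a sum of 101 to 150.1 TPM in control and 77.4 to 87.0 TPM in UVB rats. The part of cell composition in the Sgk1 difference was not tested.

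Cebpd, a transcription factor of the acute-phase and inflammatory response, moved the other way. It was at 13.9, 23.0, 10.9 and 14.6 TPM in Control WT and at 12.5, 19.7, 9.43, 16.3 and 24.3 TPM in Control P1.hMR rats. Under UVB the values were 38.4, 30.2 and 19.1 TPM in WT and 23.3, 32.7, 36.7, 23.9 and 27.7 TPM in P1.hMR rats. The groups overlapped in both genotypes, through Control WT replicate 2 and UVB WT replicate 3 and through Control P1.hMR replicate 5. WT rats had a log2 change of 0.86 (standard error 0.29, adjusted p = 0.0439) and P1.hMR rats one of 0.82 (standard error 0.24, adjusted p = 0.0123). Exact permutation tests gave p = 0.114 and p = 0.0238, and for the average over genotypes p = 0.00227. The WT call was close to the threshold, and was lost when any of Control WT replicates 1, 3 or 4, Control P1.hMR replicate 4, UVB WT replicates 1 or 2 or UVB P1.hMR replicate 5 was left out (log2 change 0.64 to 0.86, adjusted p 0.0517 to 0.176). The P1.hMR call held with each rat left out. A neutrophil list, of which 3 of 5 genes had a mean of at least 1 TPM under UVB and 2 without it, summed to 1563 to 1916 TPM in control and 1840 to 2821 TPM in UVB rats. Nearly all of this sum was S100a8 and S100a9, with means of 1354 and 336 TPM already in Control WT rats, and both genes are also made by keratinocytes, so the sum is no measure of neutrophils alone. Mmp8 and Ngp had means under 1 TPM in every group, and Csf3r had means of 0.12 and 0.23 TPM in control and 1.12 and 1.93 TPM in UVB rats (WT and P1.hMR). Deviations of Cebpd from the group means had r = -0.11 with those of the neutrophil sum over 17 rats. Among the marker lists its r was highest with skeletal muscle, at 0.40. The part of neutrophils or of other cells in the Cebpd difference was not tested.

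Ndrg2, an aldosterone-responsive member of the N-myc downstream-regulated family, showed a small but regular difference. It lay between 281 and 314 TPM in the 9 control rats and between 220.5 and 259.8 TPM in the 8 UVB rats. No UVB rat reached the control range in either genotype. Of all tested genes, 12.6% showed such a separation in the lower direction between the WT groups and 14.0% between the P1.hMR groups. Its log2 difference was -0.24 for WT (standard error 0.054, adjusted p = 0.00604) and -0.28 for P1.hMR rats (standard error 0.044, adjusted p = 0.000157). Both passed the adjusted p but not the fold threshold, and by adjusted p alone 21.5% of tested genes passed for WT and 39.1% for P1.hMR rats. Within groups Ndrg2 followed the skeletal muscle sum (r = 0.83 over 17 rats). With another measure as a covariate, the mean log2(TPM + 1) of the muscle genes, the Ndrg2 difference was -0.16 (WT, adjusted p = 0.0244) and -0.22 (P1.hMR, adjusted p = 0.000406).

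Errfi1, which encodes a feedback inhibitor of the epidermal growth factor receptor, was at 59.3, 87.7, 42.7 and 52.2 TPM without UVB and 38.3, 33.4 and 47.6 TPM with it in WT rats. In P1.hMR rats it was at 51.6, 64.5, 39.6, 44.8 and 61.9 TPM without and 41.7, 55.8, 45.9, 41.5 and 35.4 TPM with UVB. The groups overlapped in both genotypes. The log2 difference was -0.56 for WT (95% interval -1.01 to -0.11, adjusted p = 0.0727) and -0.24 for P1.hMR rats (-0.61 to 0.13, adjusted p = 0.299). Without Control WT replicate 3 the WT difference was -0.71 with an adjusted p of 0.0321, past both thresholds. Averaged over genotypes it was -0.40 (adjusted p = 0.0261, exact permutation p = 0.0220), under the fold threshold.

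For the other 5 members, the genes most used as readouts of corticosteroid action, no UVB difference passed the test, and the intervals were wide. Fkbp5 encodes a co-chaperone that lowers the hormone affinity of GR and MR. It was at 20.6, 53.8, 22.2 and 22.7 TPM in Control WT and 16.0, 14.6 and 42.2 TPM in UVB WT rats, and at 33.7, 62.8, 13.1, 12.2 and 14.9 TPM in Control P1.hMR and 28.5, 42.1, 34.8, 22.8 and 18.3 TPM in UVB P1.hMR rats. The ranges of all 4 groups overlapped, with 1 or 2 high rats in each control group. After UVB, log2 differences of -0.34 (WT, 95% interval -1.42 to 0.75) and 0.34 were found (P1.hMR, -0.56 to 1.23). Tsc22d3 encodes GILZ, an anti-inflammatory leucine zipper protein, and its log2 difference was -0.20 for WT (-1.003 to 0.61) and 0.17 for P1.hMR rats (-0.50 to 0.84). Zbtb16, a zinc finger repressor, differed by -0.07 (-1.34 to 1.199) and 0.33 (-0.72 to 1.39) in the 2 genotypes. Per1, a repressor of the circadian clock, differed by -0.45 (-1.14 to 0.24) and -0.27 (-0.84 to 0.30). Klf9, a Krüppel-like transcription factor, had the narrowest intervals of these 5, 0.04 (-0.36 to 0.44) and 0.08 (-0.25 to 0.41). The adjusted p of these 10 comparisons ran from 0.341 to 0.952.

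**Figure D2:**
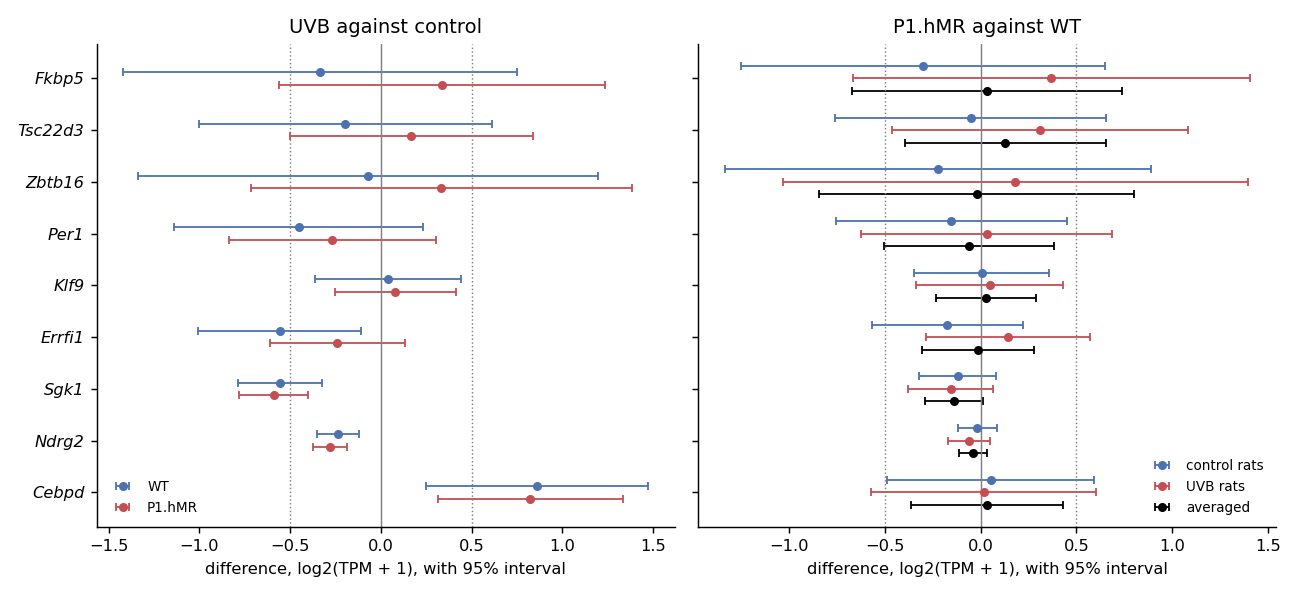
Differences of the 9 members in log2(TPM + 1) with 95% intervals from limma, UVB against control by genotype (left) and P1.hMR against WT by treatment and averaged (right), with dotted lines at the fold threshold of 0.5. Sgk1, Ndrg2 and Cebpd have intervals clear of 0 after UVB in both genotypes, and every genotype interval includes 0.

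Carrying the human receptor was the second comparison, which asks whether rats with the transgene differed in the receptor's classic targets. No member was called. The count was 0 of 9 without UVB, under UVB, averaged over treatments and for the interaction of genotype and UVB. In each of these comparisons 0 of 9 had an unadjusted limma p under 0.05, and the exact permutation tests gave p of at least 0.0720. Of all tested genes, 4.03% had such an unadjusted p without UVB and 10.3% under UVB. The share was 7.61% averaged over treatments and 6.92% for the interaction. Among all tested genes 0.00763% were called without UVB, 0.0229% under UVB, 0.00763% averaged over treatments and 0% for the interaction. The 0.00763% stands for 1 gene, the human NR3C2 of the transgene itself, which was also among the 3 genes called under UVB.

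Without UVB the differences between P1.hMR and WT rats ran from -0.30 for Fkbp5 (95% interval -1.25 to 0.65) to 0.05 for Cebpd (-0.49 to 0.59). Under UVB they ran from -0.16 for Sgk1 (-0.38 to 0.07) to 0.37 for Fkbp5 (-0.67 to 1.41). Averaged over treatments, Sgk1 differed by -0.14 (-0.29 to 0.01, adjusted p = 0.681, exact permutation p = 0.0720), and Ndrg2 had the narrowest interval at -0.04 (-0.11 to 0.04). Klf9 differed by 0.03 (-0.23 to 0.29), Cebpd by 0.03 (-0.36 to 0.43) and Errfi1 by -0.02 (-0.31 to 0.28). The intervals of Tsc22d3 (0.13, from -0.40 to 0.65), Per1 (-0.06, from -0.51 to 0.38), Fkbp5 (0.03, from -0.67 to 0.74) and Zbtb16 (-0.02, from -0.84 to 0.80) left room for larger differences in either direction. For the interaction, the largest value was that of Fkbp5 at 0.67 (-0.73 to 2.08, adjusted p = 0.880), and Sgk1 was at -0.04 (-0.34 to 0.27).

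Most members varied widely between rats of the same group. Zbtb16 had a within-group SD of 0.88 in log2(TPM + 1), a larger value than 99.5% of tested genes, and its highest rat was 9.15-fold above its lowest. The SD was 0.75 for Fkbp5 (larger than 99.3% of genes), 0.56 for Tsc22d3 (98.6%), 0.47 for Per1 (97.6%), 0.42 for Cebpd (96.7%), 0.31 for Errfi1 (92.4%) and 0.27 for Klf9 (89.6%). Sgk1 at 0.15 (63.0%) and Ndrg2 at 0.067 (10.2%) were much steadier, beside a median of 0.13 over all genes tested.

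The same rats carried the high values. Control WT replicate 2 was the highest of its group in 8 of the 9 members, all but Sgk1. Control P1.hMR replicate 2 was highest in 5, namely Fkbp5, Tsc22d3, Zbtb16, Klf9 and Errfi1. UVB WT replicate 3 was highest in 6, the same 5 genes and Per1, and UVB P1.hMR replicate 2 was highest in 6, Fkbp5, Per1, Tsc22d3, Klf9, Ndrg2 and Errfi1. At the other end, Control P1.hMR replicate 3 and UVB P1.hMR replicate 5 were the lowest of their groups in 5 members each, and Control WT replicate 3 in 4. UVB WT replicate 1 was at both ends, the lowest of its group in 4 members and the highest in 3, Sgk1, Cebpd and Ndrg2. These positions are a description of single animals, since no label sets these rats apart from the others in their groups. How often these rats were highest or lowest over all tested genes was not computed. Members that vary together are not separate observations.

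**Figure D3:**
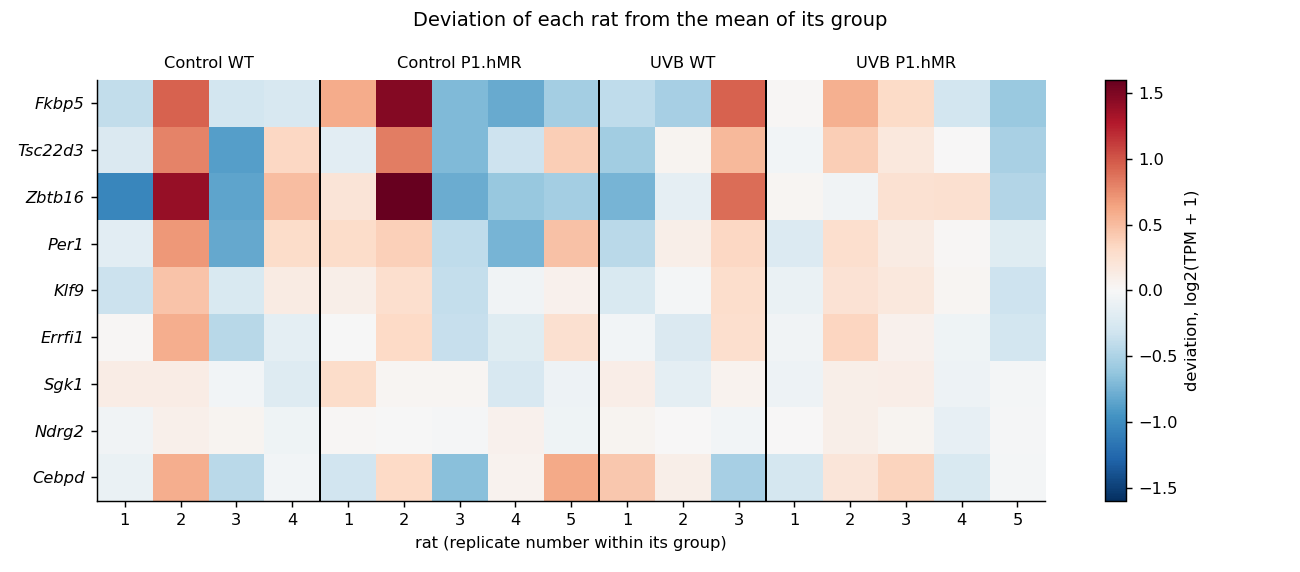
Deviation of each rat from the mean of its group in log2(TPM + 1), colour scale from -1.6 (blue) to 1.6 (red), with members as rows and rats as columns. The column of Control WT replicate 2 is red or pale red throughout, and the rows of Sgk1 and Ndrg2 are pale, their within-group SDs being 0.15 and 0.067.

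Correlations between members were computed on log2(TPM + 1) over the 9 control rats and, separately, over the 8 UVB rats, for 36 pairs in each. In control rats the median Pearson r was 0.65, with 33 of 36 pairs above 0, and 9 pairs passed an adjusted p of 0.05 in exact permutation tests, all positive. Zbtb16 and Klf9 had r = 0.88 (exact p = 0.000121, adjusted p = 0.00437, Spearman's rho = 0.97 with exact p = 0.000165), and r = 0.77 without the 2 rats farthest from the median of Zbtb16. Per1 and Tsc22d3 had r = 0.88 (exact p = 0.00210, adjusted p = 0.0214, rho = 0.90 with exact p = 0.00203), and r = 0.89 without the 2 rats farthest in Per1. Tsc22d3 and Klf9 had r = 0.88 (exact p = 0.00238, adjusted p = 0.0214, rho = 0.87 with exact p = 0.00451), and r = 0.75 without the 2 farthest rats. The pair of Fkbp5 and Zbtb16 (r = 0.89, exact p = 0.00529, adjusted p = 0.0254, rho = 0.77 with exact p = 0.0214) fell to r = 0.59 without the replicates numbered 2 of both control groups, and rests in part on them. Fkbp5 and Tsc22d3 (r = 0.67, rho = 0.65, exact p = 0.0534 and 0.0666, adjusted p = 0.108) had r = 0.12 without these 2 rats. The number of pairs past the threshold depended on single animals. It was 1 without Control WT replicate 2, Control WT replicate 3 or Control P1.hMR replicate 3, and 3 without Control P1.hMR replicate 2, while the median r over the pairs stayed between 0.51 and 0.77.

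In UVB rats the median r was 0.31, with 25 of 36 pairs above 0 and 4 past the threshold. Tsc22d3 and Klf9 had r = 0.93 (exact p = 0.00124, adjusted p = 0.0223, rho = 0.93 with exact p = 0.00223), and r = 0.89 without the 2 farthest rats. The other 3 pairs were Fkbp5 with Errfi1 (r = 0.93), Per1 with Klf9 (r = 0.90) and Fkbp5 with Tsc22d3 (r = 0.87). No pair passed without UVB P1.hMR replicate 3 or 4, and 9 passed without UVB WT replicate 2.

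In control rats Cebpd rose and fell with Tsc22d3 (r = 0.85, exact p = 0.00599, adjusted p = 0.0254, rho = 0.82 with exact p = 0.0108), and r was 0.78 without the 2 farthest rats. In UVB rats the r of the same pair was -0.35 (exact p = 0.399, rho = -0.26 with exact p = 0.536) and became 0.11 without the 2 farthest rats, so its negative sign rests on them. The difference between the 2 correlations was not tested. Sgk1 and Ndrg2 were in none of the pairs past the threshold in either set of rats.

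**Figure D4:**
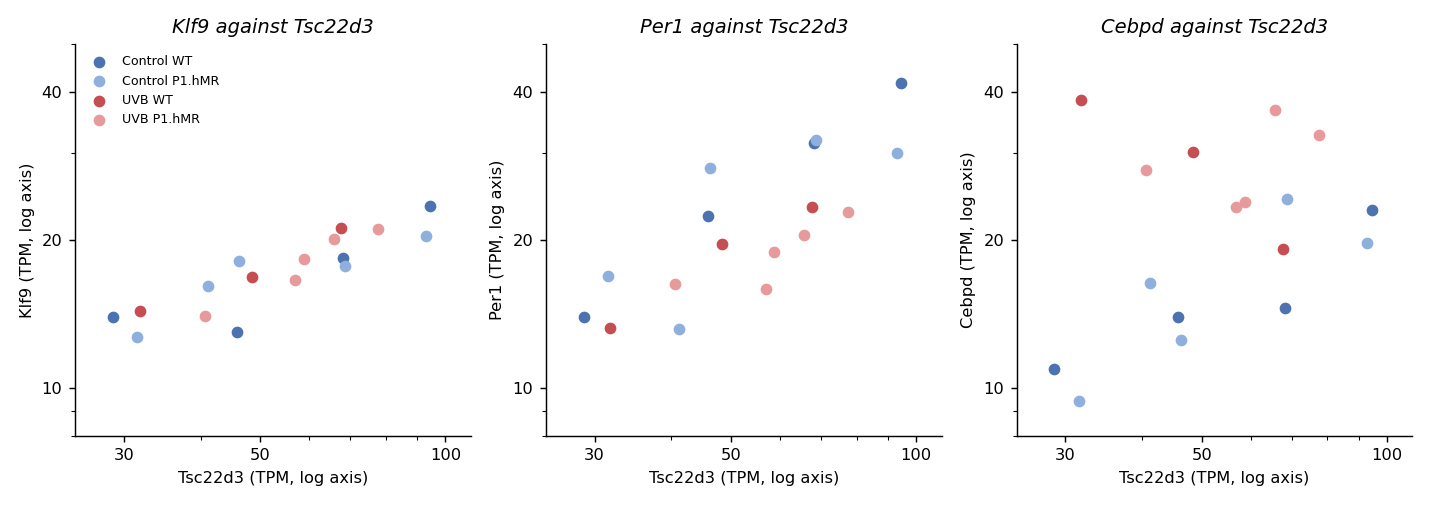
Klf9, Per1 and Cebpd against Tsc22d3 in each of the 17 rats (TPM, both axes logarithmic), coloured by group. Klf9 and Per1 increase with Tsc22d3 in control and UVB rats alike, and Cebpd has higher values in UVB rats. The r of Cebpd with Tsc22d3 was 0.85 in control and -0.35 in UVB rats, the latter 0.11 without 2 rats, and the difference was not tested.

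Taking deviations from the 4 group means over all 17 rats, which are given as a description, the median r of the 36 pairs was 0.46. Fkbp5, Tsc22d3, Zbtb16, Per1, Klf9 and Errfi1 had r from 0.65 to 0.90 with one another. Among the 13104 other tested genes, Klf9 ranked the first in likeness to Tsc22d3 (r = 0.90), and Tsc22d3 ranked the first in likeness to Per1 (r = 0.88) and the second in likeness to Klf9 and to Errfi1 (r = 0.86). Cebpd had r from 0.17 to 0.58 with these 6 genes, Sgk1 from 0.08 to 0.53 and Ndrg2 from -0.15 to 0.23.

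Outside the members, the genes most like Fkbp5 by the same measure were Socs2, a feedback inhibitor of cytokine and growth hormone signalling (r = 0.88), and Itpkc (r = 0.87). Per1 was most like Slc35e2b (r = 0.88) and its paralogue Per2 (r = 0.87). For Tsc22d3 these genes were Tsacc (r = 0.89), at a mean of only 0.47 TPM, and Mtus1 (r = 0.87). Zbtb16 was closest to Slc28a2, a nucleoside transporter (r = 0.97), and Fam107a (r = 0.91), and Klf9 to Abcg2, an efflux transporter (r = 0.90), and Fmo2 (r = 0.88). Errfi1 was nearest to Dgkd (r = 0.91) and Mga (r = 0.82), Cebpd to Ccdc17 (r = 0.85) and Nubpl (r = 0.83), and Sgk1 to Daam1 (r = 0.89) and Slc5a5, the sodium iodide symporter (r = 0.83). The nearest genes of Ndrg2 were Tmem38a (r = 0.92) and Ldb3 (r = 0.92), both known from striated muscle.

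Other genes induced by corticosteroids in many tissues were read from a list of 25, of which 23 were tested. In WT rats UVB called 2 of them higher and 1 lower, and in P1.hMR rats likewise 2 and 1, beside 7.91% and 10.8% of all tested genes called in either direction. The same 3 genes were called in both. The metallothionein Mt2A rose by 0.76 and 1.37 on the log2 scale (WT and P1.hMR, adjusted p = 0.00705 and 5.49e-06), the cell cycle inhibitor Cdkn1c rose by 1.08 and 0.54 (adjusted p = 0.000115 and 0.00124), and Txnip, an inhibitor of thioredoxin, fell by 0.75 and 0.68 (adjusted p = 0.00399 and 0.000742). For the list, the median change was 0.00 (WT) and -0.03 (P1.hMR). P1.hMR and WT rats differed in 0 of the 23 by limma in any comparison.

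Among 11 genes of MR action in epithelia, UVB called 1 higher and 1 lower in WT rats and 2 higher and 1 lower in P1.hMR rats, with the same 7.91% and 10.8% of all tested genes as background. Lcn2, an iron-binding protein of innate defence, rose by 3.54 and 2.65, and Atp1b1, a subunit of the sodium pump, fell by 0.98 and 1.00 (adjusted p between 2.27e-05 and 0.00779). Lcn2 averaged only 0.11 TPM in Control WT rats, so that its log2 values depend on the pseudocount, and 1 UVB P1.hMR rat, at 0.35 TPM, was within the Control P1.hMR range of 0.28 to 2.80 TPM. Usp2, named after its values were seen, was the additional gene called in P1.hMR rats, at 0.60 (adjusted p = 0.00719) beside 0.32 in WT rats (adjusted p = 0.255). The list's median was -0.16 and -0.13.

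Of 17 clock genes tested, UVB called 3 lower in WT, and 4 lower and 1 higher in P1.hMR rats, again beside 7.91% and 10.8% of all tested genes. Nr1d1, the repressor REV-ERB alpha, fell with log2 changes of -1.04 and -1.501, and Npas2, a partner of the clock activator, with -0.64 and -0.80 (adjusted p between 1.66e-05 and 0.00841). Of 22 immediate early genes, 3 rose and 1 fell in WT, and 3 rose and 2 fell in P1.hMR rats, against the same background. The MAP kinase phosphatase Dusp6 rose by 0.84 and 1.11, the AP-1 subunit Fosl1 by 0.70 and 0.83 and the signalling inhibitor Spry4 by 0.71 and 0.81, while Egr2 fell by 0.63 and 0.68 (adjusted p between 4.76e-06 and 0.00484). No gene of these 3 lists was called between genotypes by limma.

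Within groups, 9 of the 23 other steroid-induced genes had r of at least 0.5 with Tsc22d3, beside 4.75% of all tested genes, and their median r was 0.40, beside 0.00 over all tested genes. With Per1 and Errfi1 it was 9 of 23 each (3.56% and 4.33% of all genes) and with Fkbp5 8 of 23 (3.51%). With Zbtb16 and Klf9 it was 7 of 23 each (4.34% and 4.61%). Ndrg2 had 4 of 23 (3.53%), Cebpd 3 of 23 (4.91%) and Sgk1 1 of 23 (3.05%). The highest r was that of Fam107a for Zbtb16 (0.91) and Klf9 (0.81), of Sult1a1 for Tsc22d3 (0.83) and Per1 (0.81), of Glul for Fkbp5 (0.85) and of Irs2 for Errfi1 (0.80), of which Sult1a1, Glul and Irs2 were named after their values were seen. Per2 had the highest r among the clock genes for each of these 6 members (0.58 to 0.87). Of the 17 clock genes, 6 had r of at least 0.5 with Per1 and 4 each with Tsc22d3 and Zbtb16. The count was 3 each with Fkbp5 and Errfi1 and 2 with Klf9, beside the same shares of all genes as above. The median r of the clock genes ran from 0.13 (Klf9) to 0.36 (Tsc22d3). With Per1 it was 0.35, beside 0.26 for the steroid-induced genes. Immediate early genes had a median r of 0.39 with Cebpd, 7 of 22 being at 0.5 or more (4.91% of all genes), and of 0.08 with Tsc22d3. Of the 11 genes of MR action in epithelia, only 1 (Usp2) had r of at least 0.5 with Fkbp5, Tsc22d3, Zbtb16, Per1, Klf9 or Errfi1. With Sgk1, Cebpd and Ndrg2 the count was 0. Their median r with the first 6 ran from -0.12 (Per1) to 0.09 (Klf9). These correlations share the same 17 libraries and carry no test.

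**Figure D5:**
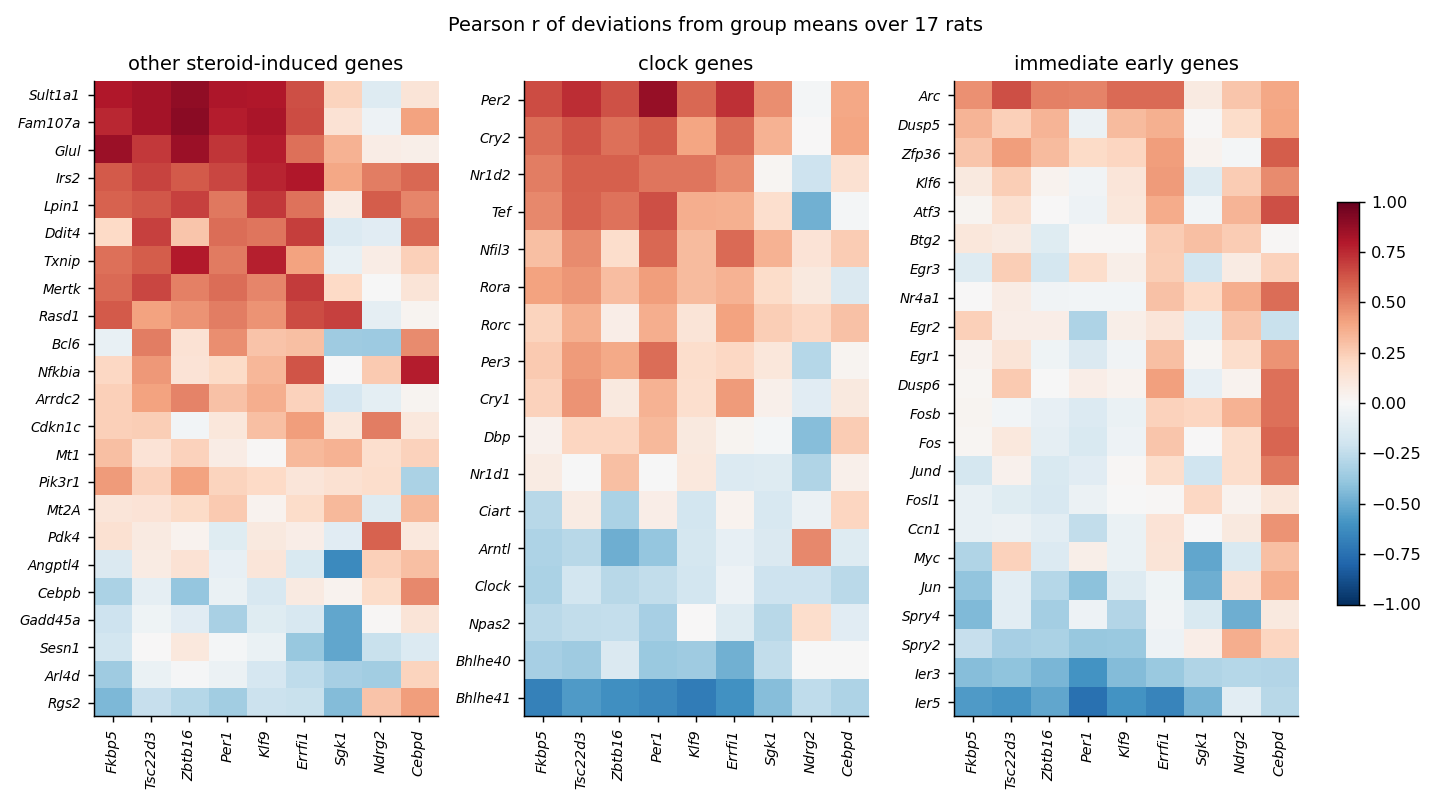
Pearson r over 17 rats between deviations from the group means of the 9 members (columns) and of other steroid-induced, clock and immediate early genes (rows, ordered by their median r), colour scale from -1 to 1. The upper rows of the first panel are red for the first 6 members, Fam107a reaching 0.91 with Zbtb16. For Ndrg2 these rows range from pale to red, with r up to 0.60.

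Because 6 of the members varied together, the promoters of the members were read for the DNA elements of the receptors and of the cAMP response. RefSeq windows of 250 bases upstream of an annotated start on GRCr8 were at hand for 7 of the 9 members, 12 windows in all. None were read for Cebpd and Zbtb16, and DNA outside the windows was not searched. The 12 windows thus include those of Sgk1 and Ndrg2, which were not among the 6, and lack Zbtb16, which was. The full palindrome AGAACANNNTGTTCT was in 0 of the 12, beside 0.012% of the 33469 windows of all genes, and its single arm AGAACA likewise in 0, beside 17.5%. The central letters ACANNNTGT were in 1 window, of Tsc22d3, beside 5.81% of all windows. The short cAMP element TGACG was in 3 windows, of Klf9, Errfi1 and Tsc22d3, beside 18.2%, while TGACGTCA (1.59% of all windows) and the E-box CACGTG (5.59%) were in 0. Both strands were searched, and AGAACA and ACANNNTGT can overlap in the palindrome, as TGACG lies within TGACGTCA. The 4 windows with a match are printed from 5′ to 3′ on the strand of the gene, with the matched letters in capitals. Counted from the annotated start, the match begins at base -183 in the first Tsc22d3 window, and the second has 2 matches, at -75 and -65. In Klf9 it begins at -79 and in Errfi1, on the opposite strand and so written CGTCA, at -56.
Tsc22d3, chrX:109065431-109065680, minus strand: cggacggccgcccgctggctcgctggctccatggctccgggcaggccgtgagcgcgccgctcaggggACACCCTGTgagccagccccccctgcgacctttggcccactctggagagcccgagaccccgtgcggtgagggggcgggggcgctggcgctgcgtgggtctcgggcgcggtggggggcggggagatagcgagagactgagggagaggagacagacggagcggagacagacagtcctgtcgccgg
Tsc22d3, chrX:109010035-109010284, minus strand: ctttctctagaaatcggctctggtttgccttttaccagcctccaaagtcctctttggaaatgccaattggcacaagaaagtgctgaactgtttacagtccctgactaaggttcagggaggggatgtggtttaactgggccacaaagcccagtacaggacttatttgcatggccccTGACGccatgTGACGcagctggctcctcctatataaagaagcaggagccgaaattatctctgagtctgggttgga
Klf9, chr1:230126396-230126645, plus strand: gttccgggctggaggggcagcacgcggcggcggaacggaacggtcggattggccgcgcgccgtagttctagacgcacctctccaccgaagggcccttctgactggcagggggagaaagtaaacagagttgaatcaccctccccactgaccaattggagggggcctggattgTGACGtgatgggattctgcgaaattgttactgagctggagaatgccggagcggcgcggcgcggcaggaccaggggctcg
Errfi1, chr5:166606591-166606840, plus strand: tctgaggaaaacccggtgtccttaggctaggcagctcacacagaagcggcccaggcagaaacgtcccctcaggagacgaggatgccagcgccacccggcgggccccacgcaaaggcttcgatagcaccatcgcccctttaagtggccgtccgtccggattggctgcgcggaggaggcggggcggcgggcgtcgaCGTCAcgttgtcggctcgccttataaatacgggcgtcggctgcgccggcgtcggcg
A match of letters is a description of the window and not a binding site.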

How the data were processed

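Whole-gland RNA of 17 rats was sequenced, and the authors deposited TPM per gene and rat, written with 2 decimals. The methods name STAR and RSEM, while the submitters' processing notes list FastQC, Trimmomatic, DRAGEN and Picard with the rat build rn7, so the tool behind the deposited TPM values is uncertain. The listed TPM summed to 804378 to 840817 per rat. TPM keeps no depth, and precision comes from the spread between rats.

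Values were analysed as log2(TPM + 1), which understates the change of low genes. A total of 13105 genes reached 1 TPM in 3 or more rats and entered 1 limma model (R 4.3.3, limma 3.58.1) with 4 group means and a variance trend. A gene was called at an adjusted p under 0.05 with a log2 change of 0.5 or more in size. Other tests were two-sided exact permutations (Python 3.11.15, scipy 1.17.1), stratified for averages. P-values set a difference against the spread between these rats. For limma this spread was pooled over the 4 groups and drawn towards a trend over all tested genes. The scripts were tested on simulated data.

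The text names all members, the receptors and enzymes, up to 4 genes per list called after UVB in both genotypes in the same direction with the largest average change, and for each member the 2 genes with the highest within-group r. Genes named outside this rule are marked as such. Marker lists are given by sums and counts, except where single genes carry a sum. One gene of the list of MR action in epithelia was taken out after the analysis and is not reported here. Members and lists were chosen with earlier results of these data known. Columns were matched to rats by their labels. Same-numbered rats did not deviate together (22 pairs, r from -0.19 to 0.24).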

Additional observations from a re-analysis of the deposited data

Results flagged for a closer look

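Fkbp5 in Control WT replicate 2 was at 53.8 TPM, while the other 3 rats of the group lay between 20.6 and 22.7 TPM. The gap was 0.90 of the whole range, past Dixon's criterion for 4 samples. Of 41 combinations of gene and group examined it was the only one past that criterion, and chance alone sets a sample apart in about 1 in 20. The same rat was the highest of its group in 8 of 9 members, several of which varied together. What sets it apart was not tested.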

How the results depend on the processing

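The UVB calls of Sgk1 and Cebpd rest on modest changes, and with a log2 change of 1 or more required the members called were 0 in WT, 0 in P1.hMR and 0 averaged over genotypes. In WT rats 1 member (Sgk1) was called with no filter on low values, 1 with only the 2 groups compared and 1 without a variance trend, since Cebpd (adjusted p = 0.0439) then passed the threshold no more, at an adjusted p of 0.0649, 0.0784 and 0.0512. With no fold change threshold, 4 members were called averaged over genotypes, Ndrg2 and Errfi1 in addition. The count in WT ran from 0 to 2 with each rat left out, and stayed at 2 in P1.hMR rats. No member was called between genotypes or for the interaction under any alternative run. Pseudocount 0.1, a mean of 5 TPM or more, median-of-ratios scaling, quantile normalization and a muscle covariate changed no count of members called.

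Changes of sign were seen only in uncalled differences. With each rat left out, the UVB difference ran in WT rats from -0.10 to 0.19 for Klf9, from -0.49 to 0.08 for Tsc22d3 and from -0.52 to 0.39 for Zbtb16, and in P1.hMR rats from -0.015 to 0.16 for Klf9 and from -0.0096 to 0.37 for Tsc22d3. P1.hMR minus WT ran without UVB from -0.099 to 0.25 for Cebpd and from -0.67 to 0.014 for Fkbp5. Averaged over treatments it ran from -0.10 to 0.14 for Cebpd, -0.090 to 0.081 for Errfi1, -0.15 to 0.27 for Fkbp5, -0.035 to 0.10 for Klf9, -0.20 to 0.055 for Per1, -0.019 to 0.26 for Tsc22d3 and -0.24 to 0.21 for Zbtb16. The Sgk1 interaction ran from -0.12 to 0.038. Quantile normalization gave 0.0012 for Errfi1 averaged over treatments. The cause was not tested.

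Replicate numbers only name the rats and do not pair them. A replicate block left the count of members called at 2 in each UVB comparison and 0 between genotypes. With the block, P1.hMR minus WT was -0.019 for Cebpd without UVB and, averaged over treatments, -0.033 for Cebpd, 0.013 for Errfi1 and 0.11 for Zbtb16, and the Sgk1 interaction was 0.029.

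The pairs of members past the threshold numbered 1 to 11 in control and 0 to 9 in UVB rats with each rat left out, and 9 in UVB rats with median-of-ratios scaling. The median r ran from 0.51 to 0.77 in control and from 0.26 to 0.59 in UVB rats, and on deviations from the 4 group means it was 0.46. TPM carries no depth, and 3 to 5 rats a group leave intervals wide for Fkbp5, Zbtb16 and Tsc22d3.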

Other observations

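Among the genes of the lists, some moved against the 6 members that varied together. Bhlhe41, a repressor of the clock, had a within-group r over 17 rats of -0.70 with Klf9, -0.67 with Fkbp5, -0.65 with Per1, -0.61 with Zbtb16 and Errfi1 and -0.57 with Tsc22d3. Ier5, an immediate early gene, had r of -0.75 with Per1 and -0.66 with Errfi1. Hsd11b2 had r of 0.72 with Zbtb16 and 0.67 with Fkbp5, against 0.05 with Cebpd. Usp2 had r of 0.80 with Tsc22d3, while Edn1, which encodes endothelin-1, had -0.63. Cebpd was nearest to Nfkbia, the inhibitor of NF-kappa-B (r = 0.78), among the steroid-induced genes, and to Atf3 (r = 0.64) among the immediate early genes. Bhlhe41, Ier5, Usp2, Edn1, Nfkbia and Atf3 were named after their values were seen, and the r values are descriptions without a test.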
